A study of Sus scrofa with 8 samples.

Results

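The sarcomeric myosin heavy chains are the motor proteins of the thick filament, and 7 of their genes are described here in the longissimus dorsi, a long muscle of the back, of weaned piglets given melatonin or saline. The members are MYH7, MYH2, MYH1, MYH4, MYH7B, MYH3 and MYH8, 7 of the 23235 genes of the deposited table. Of these, 6 were found by the table's gene name and 1, MYH2, by the NCBI gene number in its description, since its row carries only an Ensembl ID. RNA was sequenced from 4 melatonin and 4 control libraries of Duroc x Landrace x Yorkshire piglets. The melatonin animals received 5 mg of melatonin per kg body weight in 10 mL of sterile saline by gavage each day, and the control animals received the same volume of sterile saline alone. Both groups entered at 28 days of age, had 5 days of adaptation and were dosed for 23 days on the same basal diet, with 6 piglets per group. The labels number the libraries within a group and do not name the animals, so each library was taken as a separate piglet and p-values measure only the spread between these libraries.

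Each muscle fibre is dominated by 1 or a few heavy chain isoforms, and the isoform sets how fast the fibre contracts. MYH7 encodes the slow isoform of oxidative fibres, and MYH2, MYH1 and MYH4 encode the fast isoforms IIa, IIx and IIb, in order of rising speed and falling oxidative capacity. MYH3 and MYH8 encode the embryonic and perinatal isoforms, which are replaced by the adult ones as muscle matures and return during regeneration. MYH7B is an ancient slow-tonic relative whose transcript carries a microRNA gene in an intron. Back muscle of modern pigs is known as a white, fast-fibre muscle in which MYH4 is abundant, unlike in human limb muscle.

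Total counts per library ran from 53891623 to 60629098 after melatonin and from 53471667 to 58930078 in controls. The 7 heavy chains took 6.37 to 8.60% of all counts after melatonin and 6.64 to 7.76% in controls. The labelled tissue was checked on 5 of 7 listed genes of the skeletal muscle fibre (ACTA1, CKM, DES, NEB and RYR1). The other listed genes, TTN and MB, were not found under those symbols. The summed FPKM of the 5 was 61914 to 81689 after melatonin and 75317 to 89873 in controls. Most of it was ACTA1, with means of 58933 FPKM after melatonin and 65278 FPKM in controls. FPKM is the fragment count scaled by transcript length and library size, so levels of different isoforms can be compared on it. Unless stated, FPKM values carry no TMM scaling between libraries, which the fold changes use. The TMM factors ran from 0.851 in control replicate 2 to 1.19 in melatonin replicate 3. Statements that a library lies above or below the controls are for unscaled FPKM and may not all hold after that scaling. Fold changes are given as the log2 of melatonin over control with their SE, by edgeR's quasi-likelihood test with Benjamini-Hochberg adjustment over the 9821 genes with a mean FPKM of at least 1, a filter that all 7 members passed. In bulk tissue, fewer fibres of a type and less RNA per fibre cannot be told apart.

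The locus on chromosome 12 holds 5 of the 7 genes in a row on the minus strand (Sscrofa11.1). In the direction of transcription the order is MYH3 (ENSSSCG00000018007, 55351156 to 55375353), MYH2 (ENSSSCG00000029441, 55253872 to 55277616), MYH1 (ENSSSCG00000054680, 55225590 to 55249340), MYH4 (ENSSSCG00000062096, 55190433 to 55212813) and MYH8 (ENSSSCG00000018005, 55134844 to 55167748). MYH1 and MYH2 are separated by only 4531 bases, MYH4 and MYH1 by 12776 and MYH8 and MYH4 by 22684, whereas 73539 bases separate MYH2 from MYH3. MYH7 lies on the plus strand of chromosome 7 (ENSSSCG00000053614, 75648442 to 75673225) and MYH7B on the plus strand of chromosome 17 (ENSSSCG00000007288, 38362452 to 38386469). Positions are the whole gene bodies. The sequences of these genes resemble each other closely enough that reads can match several of them, and how the counting assigned such reads is not given in the sources used here.

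**Figure D1:**
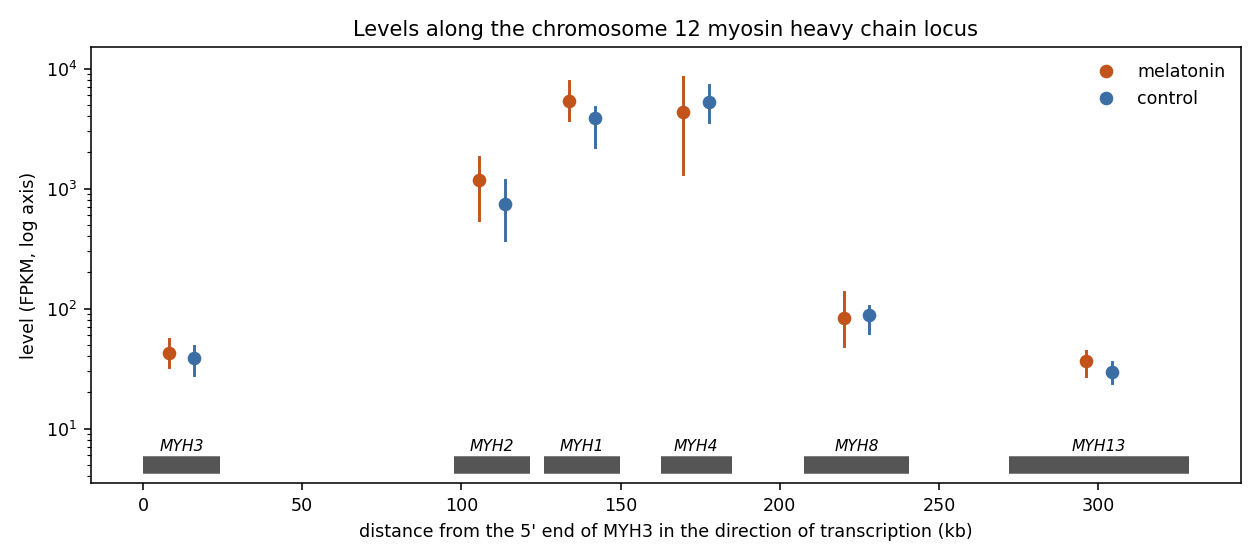
Level (FPKM, log axis) of each gene of the chromosome 12 locus against its distance from the 5′ end of MYH3 in the direction of transcription (kb). Points are group means, vertical lines run from the lowest to the highest of 4 libraries, and grey bars are gene bodies. The central MYH2, MYH1 and MYH4 lie at 373 FPKM or more in every library, while the outer MYH3 and MYH8 lie between 27.98 and 138 FPKM and MYH13, at the 3′ end, between 23.8 and 44.5 FPKM.

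MYH4 and MYH1 were the most abundant isoforms by mean level and in 7 of 8 libraries, while in melatonin replicate 1 MYH2 exceeded MYH4. Over the 8 libraries MYH4 averaged 4830 FPKM and MYH1 4627 FPKM, ranks 11 and 12 among all 23235 genes. MYH2 averaged 963 FPKM and MYH7 796 FPKM, at ranks 35 and 42. MYH8 (86.4 FPKM) and MYH3 (40.9 FPKM) followed at ranks 305 and 622, and MYH7B was lowest at 7.64 FPKM and rank 3069. Within libraries the order of MYH4 and MYH1 was even, with MYH4 higher in 2 of 4 melatonin and 2 of 4 control libraries (exact sign-flip permutation test over the 8 libraries, adjusted p = 0.914 over 6 neighbouring pairs). MYH2 and MYH7 also did not differ beyond their spread (MYH2 higher in 3 of 8 libraries, exact permutation adjusted p = 0.713). The other neighbours kept their order in all 8 libraries: MYH1 over MYH2, MYH7 over MYH8, MYH8 over MYH3 and MYH3 over MYH7B. Each had an exact permutation p of 0.00781, the smallest that 8 libraries allow, and an adjusted p of 0.0117. The pairs were taken from the mean levels of these same libraries, so these p-values are no independent support for the order. In melatonin replicate 1 MYH3 reached 97.3% of MYH8.

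No heavy chain differed between melatonin and control at the adjusted threshold. edgeR called 0 of 9821 genes (0%) over the whole table at an adjusted p under 0.05, and DESeq2 called 65 (0.662%), none of them a heavy chain. With no adjustment, 1032 genes (10.5%) had an edgeR p under 0.05, of which 655 were higher (6.67%) and 377 lower (3.84%) after melatonin. Of the 7 heavy chains 1 was among them, MYH7B, in the lower direction. In FPKM the groups overlapped for all 7 heavy chains, while they did not overlap for 216 of the 9821 genes (2.2%).

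**Figure D2:**
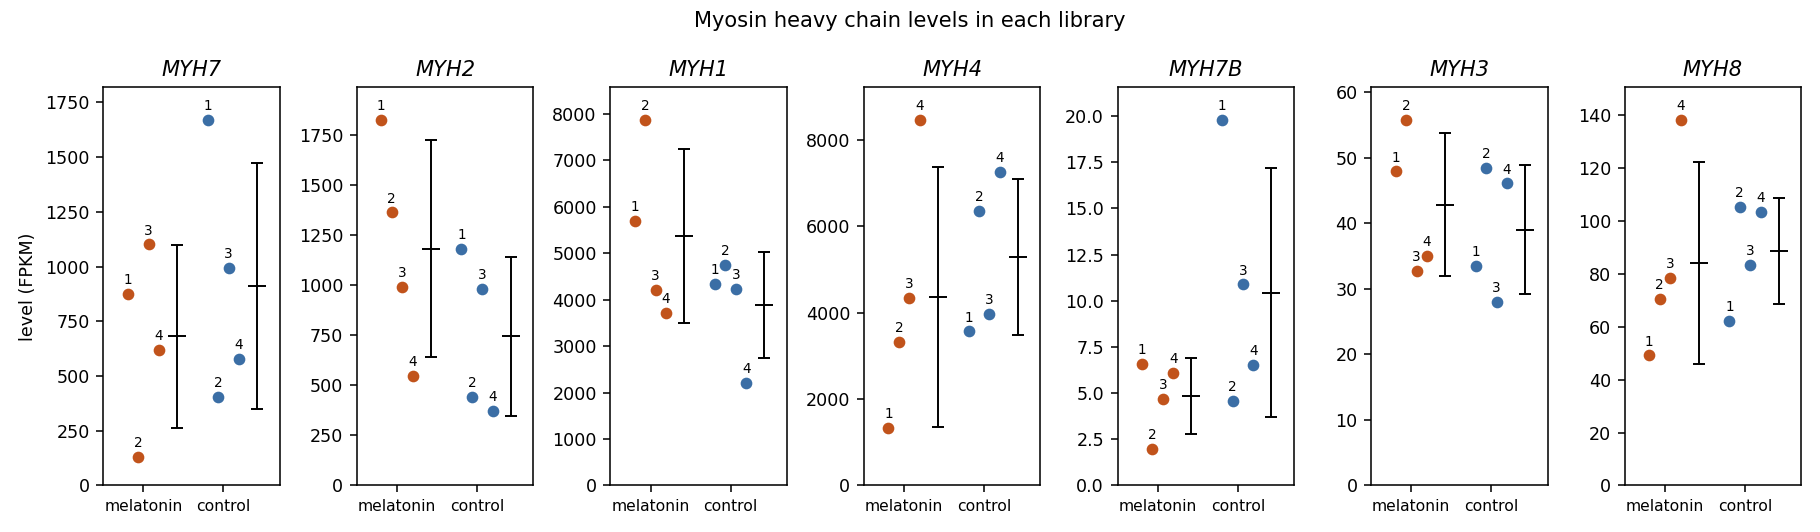
FPKM of each heavy chain gene in 4 melatonin and 4 control libraries, with linear axes from 0. Points are libraries labelled by replicate number, and bars to their right are the mean ± SD of the group. The groups overlap for every gene, and MYH7 spans 130.0 to 1668 FPKM over the 8 libraries.

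MYH7, the slow motor, measured 876, 130.0, 1102 and 619 FPKM in melatonin replicates 1 to 4, against 1668, 403, 994 and 579 FPKM in control replicates 1 to 4. The highest library was a control and the lowest a melatonin one, 12.8 times apart, and the other 3 melatonin libraries lay inside the control range. The group means were 682 ± 417 and 911 ± 562 FPKM in melatonin and control libraries (SD, n = 4 each), a log2 fold change of -0.54 ± 0.56 with an edgeR adjusted p of 0.727. Without control replicate 1 the value was -0.09, and without melatonin replicate 2 it was -0.20. The microRNA gene ssc-mir-208b, 80 bases long, lies inside MYH7 on the same strand and averaged 1.31 FPKM, from 54 counts in all over the 8 libraries. How many of these counts are RNA of MYH7 itself was not tested.

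MYH7B, the slow-tonic relative, measured 6.60, 1.97, 4.70 and 6.08 FPKM in melatonin replicates 1 to 4, against 19.8, 4.58, 10.9 and 6.53 FPKM in control replicates 1 to 4. Its fold change of -1.17 ± 0.45 was the furthest from 0 of the 7, with an unadjusted p of 0.0284 that did not survive adjustment (edgeR adjusted p = 0.453, DESeq2 adjusted p = 0.189). In unscaled FPKM only melatonin replicate 2 lay below the lowest control. Without control replicate 1 the log2 fold change was -0.68. Relative to MYH7, the level of MYH7B was 0.754, 1.52, 0.426 and 0.983% in melatonin replicates 1 to 4, against 1.19, 1.14, 1.10 and 1.13% in control replicates 1 to 4. This percentage was nearly constant in controls and lay outside the control range in each melatonin library, below it in 3 and above it in melatonin replicate 2. The ratio was singled out after its values were seen and has no test. The last 817 bases of MYH7B overlap TRPC4AP on the opposite strand, at a mean of 31.0 FPKM, and whether strand was used in counting is not given in the sources used here.

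MYH2, the fast oxidative isoform, measured 1823.5, 1364, 992 and 549 FPKM in melatonin replicates 1 to 4, against 1181, 441, 980.1 and 373 FPKM in control replicates 1 to 4. Melatonin replicates 1 and 2 lay above every control and replicates 3 and 4 inside the control range. Its log2 fold change was 0.57 ± 0.43 (edgeR adjusted p = 0.618). It was 0.35 without control replicate 4, 0.38 without melatonin replicate 1 and 0.86 without control replicate 1.

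MYH1, the IIx isoform, measured 5696, 7865, 4205 and 3711 FPKM in melatonin replicates 1 to 4, against 4339, 4758, 4234 and 2208 FPKM in control replicates 1 to 4. In unscaled FPKM melatonin replicates 1 and 2 again exceeded every control, while control replicate 4 was the lowest library of all. The log2 fold change was 0.38 ± 0.39 (edgeR adjusted p = 0.720), and 0.06 without melatonin replicate 2, 0.17 without control replicate 4 and 0.58 without control replicate 2.

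MYH4, the IIb isoform of the most glycolytic fibres, measured 1328, 3331, 4354 and 8463 FPKM in melatonin replicates 1 to 4, against 3569, 6361, 3973 and 7262 FPKM in control replicates 1 to 4. In unscaled FPKM the melatonin libraries bracketed the controls: replicates 1 and 2 lay below every control and replicate 4 above every control. The log2 fold change was -0.28 ± 0.58 (edgeR adjusted p = 0.874). Its sign rested on melatonin replicate 1, without which it was 0.039, and it was -0.98 without melatonin replicate 4.

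The developmental isoforms were present in every library at low levels beside the adult ones. MYH3, the embryonic isoform, measured 47.9, 55.7, 32.7 and 35.0 FPKM in melatonin replicates 1 to 4, against 33.4, 48.5, 27.98 and 46.0 FPKM in control replicates 1 to 4. It was the least variable of the 7 and its log2 fold change was 0.05 ± 0.28 (edgeR adjusted p = 0.952), turning to -0.17 without melatonin replicate 2, -0.03 without control replicate 1 and -0.09 without control replicate 3. MYH8, the perinatal isoform, measured 49.2, 70.7, 78.5 and 138 FPKM in melatonin replicates 1 to 4, against 62.4, 105, 83.4 and 103 FPKM in control replicates 1 to 4. Melatonin replicates 1 and 4 were the lowest and the highest of all 8 libraries. Its log2 fold change was -0.10 ± 0.38 (edgeR adjusted p = 0.931), with a sign that turned to 0.12 without melatonin replicate 1 and 0.07 without control replicate 2.

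Most heavy chains varied more between libraries of the same group than most genes did. The within-group SD of log2(FPKM + 1) was 1.17 for MYH7, larger than in 99.2% of the 9821 tested genes, 0.86 for MYH4 (98.1%), 0.78 for MYH2 (97.4%) and 0.73 for MYH7B (96.8%). MYH1 and MYH8 each had 0.50 (90.4% of genes), and MYH3 had 0.36 (76.9%), against a median of 0.26 over all tested genes. By group, the SD was larger after melatonin for MYH7 (1.39 in melatonin and 0.90 in control libraries), MYH4 (1.11 and 0.50) and MYH8 (0.61 and 0.35). It was smaller after melatonin for MYH7B (0.62 in melatonin and 0.83 in control libraries), MYH2 (0.74 and 0.82), MYH1 (0.48 and 0.51) and MYH3 (0.36 and 0.37). The difference in spread between groups was not tested.

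No difference between the groups was shown for the summed message of the 7 genes. It came to 9827, 12819, 10768 and 13520.5 FPKM in melatonin replicates 1 to 4, against 10873, 12120.5, 10304 and 10579 FPKM in control replicates 1 to 4. The mean log2 sum differed by 0.09 (two-sided exact permutation p = 0.486 over 70 assignments, for which 0.0286 is the smallest p possible). With TMM-scaled FPKM the difference was 0.0053. It ran from 0.016 without melatonin replicate 4 to 0.17 without melatonin replicate 1, and was 0.27 without melatonin replicates 1 and 3 (exact permutation p = 0.0667, the smallest that setting allows). The groups overlapped, and the lowest and highest sums were both in melatonin libraries.

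Within that sum, the adult makeup differed widely among libraries of both groups. MYH4 made up 13.7, 26.3, 40.9 and 63.4% of MYH7, MYH2, MYH1 and MYH4 together, in FPKM, in melatonin replicates 1 to 4, against 33.2, 53.2, 39.0 and 69.7% in control replicates 1 to 4. MYH1 took 58.6, 61.98, 39.5 and 27.8% after melatonin, against 40.3, 39.8, 41.6 and 21.2% in controls. Controls 1 to 3 thus lay close together for MYH1, and the melatonin libraries lay on both sides of them. MYH2 took 18.8, 10.7, 9.32 and 4.11% after melatonin, against 10.98, 3.68, 9.63 and 3.58% in controls. MYH7 took 9.01, 1.02, 10.3 and 4.64% after melatonin, against 15.5, 3.37, 9.76 and 5.56% in controls. No share was shown to differ beyond the spread between libraries (smallest two-sided exact permutation p = 0.286, for MYH1, adjusted p = 0.533 over 4 isoforms).

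**Figure D3:**
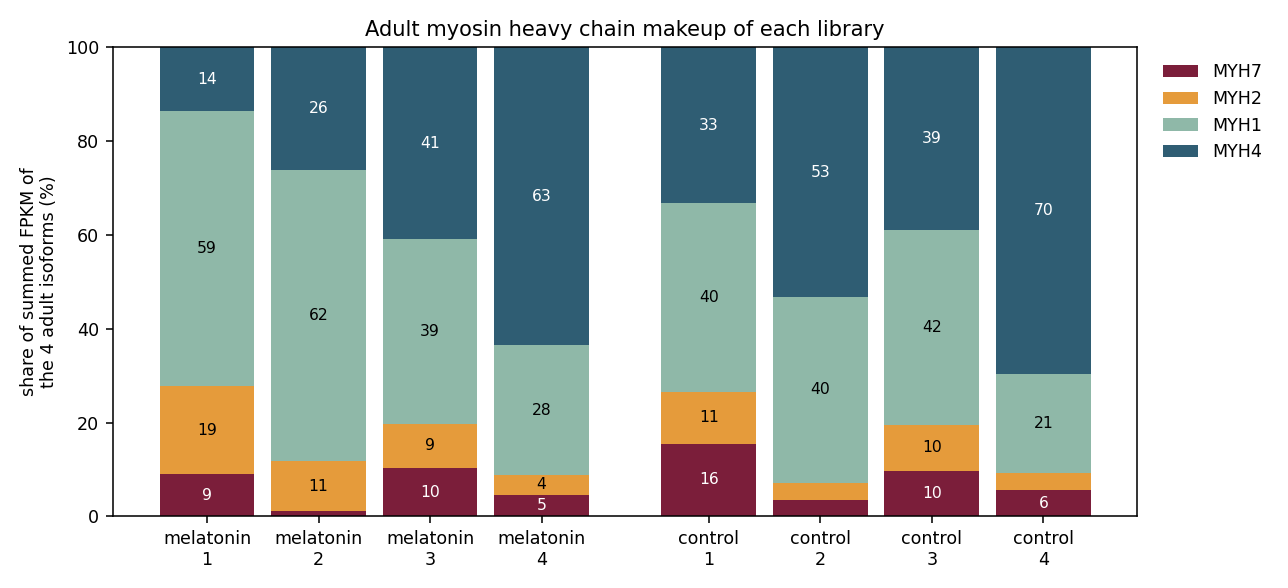
Share of each adult isoform in the summed FPKM of MYH7, MYH2, MYH1 and MYH4 (%), stacked for 4 melatonin and 4 control libraries. MYH4 runs from 13.7 to 63.4% across the melatonin libraries and from 33.2 to 69.7% across the controls.

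Ratios between isoforms were tested as a family of 4. The log2 ratio of MYH4 over MYH1 was -2.10, -1.24, 0.05 and 1.19 in melatonin replicates 1 to 4, against -0.28, 0.42, -0.09 and 1.72 in control replicates 1 to 4, a difference of means of -0.97 (exact permutation p = 0.286, adjusted p = 0.571). That difference was -0.44 without melatonin replicate 1, -0.54 without control replicate 4 and -1.54 without melatonin replicate 4. The log2 ratio of MYH7 over the 3 fast isoforms together was -3.34, -6.59, -3.12 and -4.36 after melatonin, against -2.45, -4.84, -3.21 and -4.09 in controls, a difference of -0.71 that turned to 0.041 without melatonin replicate 2. That library had the lowest slow-to-fast ratio of the 8. MYH2 over MYH1 and MYH3 over MYH8 differed by 0.24 and 0.28, and all 4 ratios had an exact permutation adjusted p of 0.571. Of all 7 isoforms together, MYH3 and MYH8 took 0.988, 0.986, 1.03 and 1.28% in melatonin replicates 1 to 4, against 0.881, 1.27, 1.08 and 1.41% in control replicates 1 to 4 (exact permutation p = 0.571).

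Co-variation of the isoforms over the 8 libraries was measured as correlations of log2(FPKM + 1) for all 21 pairs. Libraries of both treatments were pooled, and all values share the library's scaling. The perinatal MYH8 followed MYH4, its neighbour in the locus (Pearson r = 0.95, exact permutation p = 0.000347, adjusted p = 0.00729; Spearman rho = 0.93, exact permutation p = 0.00223, adjusted p = 0.0469). Without the 2 libraries farthest from the MYH4 median, melatonin replicates 1 and 4, r was 0.92. MYH2 ran opposite to MYH4 (r = -0.90, exact permutation p = 0.00159, adjusted p = 0.0167; rho = -0.90, exact permutation p = 0.00456, adjusted p = 0.0479) and to MYH8 (r = -0.87, exact permutation p = 0.00503, adjusted p = 0.0352; rho = -0.88, exact permutation p = 0.00724, adjusted p = 0.0507). Without the 2 libraries farthest from the MYH2 median these were -0.95 and -0.97.

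These 3 pairs were the only ones of 21 past an adjusted p of 0.05 in log2(FPKM + 1) over the 8 libraries. Their calls depended on the scaling and on single libraries. In TMM-scaled log2 CPM MYH4 and MYH8 kept r = 0.96 (exact permutation adjusted p = 0.00156), while MYH2 with MYH4 gave -0.80 (exact permutation adjusted p = 0.0714) and MYH2 with MYH8 -0.74 (adjusted p = 0.155). Without control replicate 2 all 3 exact permutation calls were lost, while the values of r, 0.94, -0.90 and -0.87, were close to those in 8 libraries, and without melatonin replicate 1 only MYH4 with MYH8 stayed past the threshold. The call for MYH2 with MYH8 was also lost without melatonin replicate 2 or 3 or control replicate 1 or 3. In deviations from the group means, r was 0.96 for MYH4 with MYH8, -0.89 for MYH2 with MYH4 and -0.91 for MYH2 with MYH8.

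**Figure D4:**
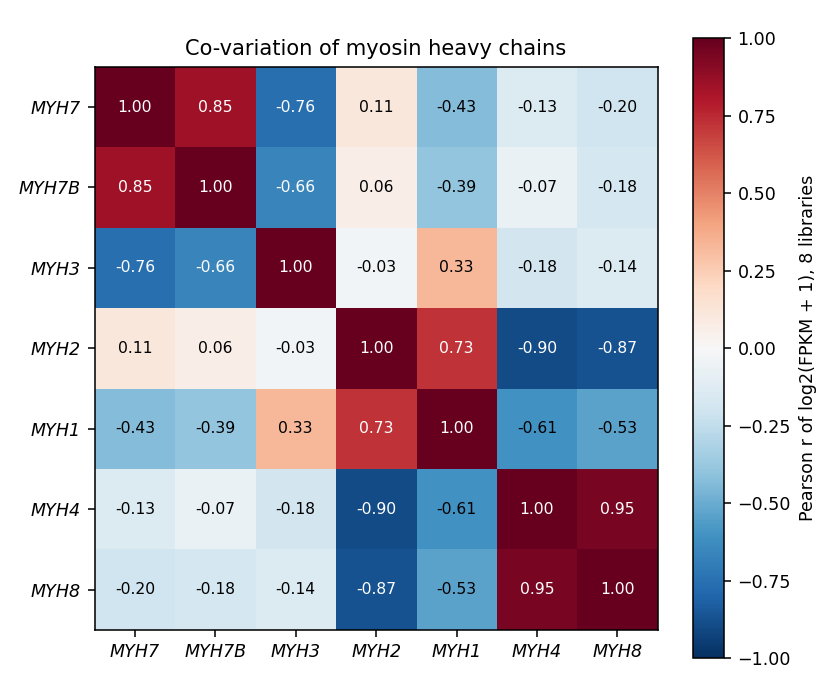
Pearson r of log2(FPKM + 1) between each pair of heavy chain genes over 8 libraries, with red for positive and blue for negative values. MYH7 and MYH7B form a positive pair (0.85), MYH4 and MYH8 another (0.95), and MYH2 is negative with both MYH4 (-0.90) and MYH8 (-0.87).

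Relative to MYH4, the level of MYH8 was 3.70, 2.12, 1.80 and 1.63% in melatonin replicates 1 to 4, against 1.75, 1.66, 2.10 and 1.42% in control replicates 1 to 4. The percentage was therefore not fixed and was highest in melatonin replicate 1, the library with the least MYH4. How far shared reads enter the level of MYH8 was not tested.

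The slow pair MYH7 and MYH7B had r = 0.85 (exact permutation p = 0.0104, adjusted p = 0.0544; rho = 0.74, exact permutation p = 0.0458, adjusted p = 0.160). Without control replicate 1 and melatonin replicate 2, the extremes of MYH7, r was 0.41, a setting that also narrows the range of MYH7. With 1 library left out, r was 0.82 without control replicate 1, 0.73 without melatonin replicate 2 and 0.96 without melatonin replicate 3 (exact permutation adjusted p = 0.0229 in the last). The call also turned on the pseudocount, since in log2(FPKM + 0.1) the pair passed the threshold (r = 0.87, exact permutation adjusted p = 0.0423). In deviations from the group means r was 0.88 (permutation adjusted p = 0.0195). That p is not exact, since deviations sum to 0 within each group while the shuffling ran over all 8 libraries. The embryonic MYH3 ran opposite to MYH7 (r = -0.76, exact permutation p = 0.0181, adjusted p = 0.0761; rho = -0.83, exact permutation p = 0.0154, adjusted p = 0.0807), with r = -0.65 without control replicate 1 and melatonin replicate 2. In TMM-scaled log2 CPM that pair passed the threshold (r = -0.81, exact permutation adjusted p = 0.0401). The adjacent MYH2 and MYH1 had r = 0.73 (exact permutation p = 0.0299, adjusted p = 0.105; rho = 0.71, exact permutation p = 0.0576, adjusted p = 0.173), and 0.71 without control replicates 2 and 4. MYH1 and MYH4, the 2 most abundant, had r = -0.61 (exact permutation p = 0.115, adjusted p = 0.301; rho = -0.81, exact permutation p = 0.0218, adjusted p = 0.0915), with -0.83 without control replicate 4 and melatonin replicate 2 and -0.25 in TMM-scaled log2 CPM. MYH3 and MYH8, both developmental isoforms, gave a correlation near 0 (r = -0.14, exact permutation p = 0.741, adjusted p = 0.915; rho = -0.05, exact permutation p = 0.935, adjusted p = 0.935), and r was -0.06 without control replicate 3 and melatonin replicate 2.

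**Figure D5:**
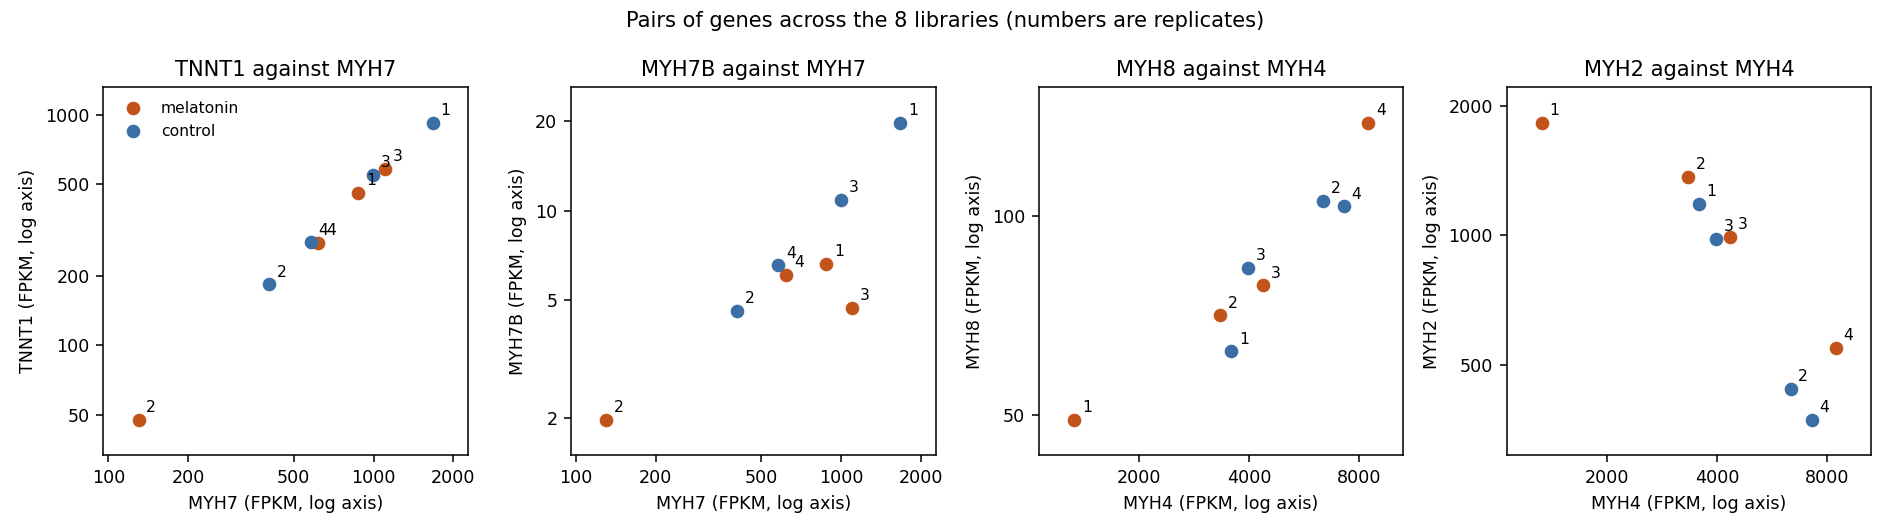
Levels (FPKM, log axes) of 4 pairs of genes in 4 melatonin and 4 control libraries, each point a library labelled by replicate number. TNNT1 lies along a line with MYH7 (r = 0.999), MYH7B lies along one with MYH7 in controls, MYH8 is higher where MYH4 is higher (r = 0.95) and MYH2 is lower there (r = -0.90).

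The genes whose pattern was most like each isoform were ranked by Pearson r over the 8 libraries among 9820 other genes, as a description. For MYH7 they were TNNT1, slow troponin T (r = 0.999), MYL2, the slow regulatory light chain (r = 0.994), and TNNI1, slow troponin I (r = 0.994). TNNT1 measured 458, 47.5, 580.1 and 277 FPKM in melatonin replicates 1 to 4, against 920.4, 183, 549 and 279 FPKM in control replicates 1 to 4, so the order of libraries was that of MYH7 except between melatonin replicate 4 and control replicate 4. In all, 53 genes had an r over 0.9 with MYH7, 30 with MYH2, 15 with MYH4, 39 with MYH7B, 8 with MYH8, 4 with MYH1 and 2 with MYH3.

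For MYH2 the closest was ASB5, an ankyrin-repeat and SOCS-box gene (r = 0.978), at 45.3, 43.7, 34.8 and 23.3 FPKM in melatonin replicates 1 to 4, against 41.2, 24.2, 37.1 and 21.1 FPKM in control replicates 1 to 4. KLHDC4 (r = 0.953) and KIFAP3, a kinesin-associated protein gene (r = 0.950), came next. For MYH1 they were CTNNA3, an alpha-catenin gene (r = 0.956), C10orf71 (r = 0.932) and FERMT2, the integrin adaptor kindlin-2 (r = 0.910). For MYH4, among genes with a symbol, they included the zinc-finger gene ZFP64 (r = 0.952), MYH8 itself and FEM1A (r = 0.922). MYH8 had MYH4 first, followed by ANKRD13B (r = 0.934), ZFP64 (r = 0.916) and DOT1L, a histone H3 methyltransferase (r = 0.912).

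MYH7B was closest to a gene without a symbol (r = 0.982) and, among those with one, to TRPM4, a cation channel (r = 0.967), RASIP1, a Ras-interacting protein of endothelium (r = 0.962), and SIPA1, a regulator of the small GTPase Rap (r = 0.958). MYH7B had a median r of 0.84 with the 14 slow contractile partners listed below. MYH3 was closest to MED14, a subunit of the Mediator complex (r = 0.979), CRYBG3 (r = 0.904) and the small nucleolar RNA gene SNORD12B (r = 0.832).

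Most contractile partners of the slow fibre varied between libraries as MYH7 did, and none passed the test between groups. All 14 slow contractile partners correlated positively with MYH7 (median r = 0.986) and 12 of them had an r over 0.9. CASQ2 (r = 0.59) and MYBPC1 (r = 0.75) followed MYH7 less closely. Between groups, 0 of 14 were called in either direction. All 14 fold changes were negative and their median was -0.61. Over all tested genes 4893 were positive and 4928 negative, with a median of 0.00. Since most of the 14 varied together with MYH7, their signs are not independent of each other. TNNC1, slow troponin C and the most abundant of the list, measured 1229 ± 840 FPKM after melatonin and 1628 ± 1049 FPKM in controls (SD, n = 4 each). CASQ2, the slow-fibre calsequestrin that stores calcium, and CSRP3, a muscle LIM protein gene, had the smallest p, with log2 fold changes of -1.02 ± 0.57 and -1.34 ± 0.87 (edgeR adjusted p = 0.534 and 0.578). CSRP3 measured 134, 5.59, 142 and 99.9 FPKM in melatonin replicates 1 to 4, against 606, 67.1, 114 and 112 FPKM in control replicates 1 to 4, so the lowest and highest libraries were those of MYH7. The summed level of the list was 6540, 960, 7074 and 3268 FPKM in melatonin replicates 1 to 4, against 12057, 2413, 6803 and 3493 FPKM in control replicates 1 to 4.

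No fast contractile partner passed the test either. Their summed level was 39002 to 50340 FPKM after melatonin and 45224 to 52020 FPKM in controls, 0 of 13 were called, 2 fold changes were positive and 11 negative, and the median was -0.09. None of the 13 correlated positively with MYH7 (median r = -0.51), and 11 did so with MYH4 (median r = 0.57). TNNI2, fast troponin I and the most abundant, measured 9183 ± 1209 and 9647 ± 790 FPKM in melatonin and control libraries. MYLK2, the kinase of the fast regulatory light chain, measured 220.4, 302, 209 and 199.9 FPKM in melatonin replicates 1 to 4, against 189, 149, 172 and 197 FPKM in control replicates 1 to 4 (0.35 ± 0.21, edgeR adjusted p = 0.561). TNNT3, fast troponin T, measured 8433 ± 848 and 9796 ± 591 FPKM in melatonin and control libraries (-0.28 ± 0.27).

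Other developmental muscle genes gave no call. Of 9 listed, 7 were tested and 0 called, with 1 positive and 6 negative fold changes and a median of -0.34. TNNT2, the troponin T of cardiac and embryonic muscle, measured 2.59, 4.18, 3.67 and 5.03 FPKM in melatonin replicates 1 to 4, against 9.46, 10.5, 12.1 and 4.16 FPKM in control replicates 1 to 4 (-1.27 ± 0.39, edgeR adjusted p = 0.440). NCAM1, an adhesion molecule of developing and denervated fibres, measured 2.90, 1.40, 5.62 and 3.23 FPKM after melatonin, against 1.77, 2.04, 1.52 and 1.47 FPKM in controls (0.81 ± 0.32, edgeR adjusted p = 0.453). The embryonic light chain gene MYL4 was listed at 0 in all 4 controls and in melatonin replicate 4, and reached 0.494 FPKM in melatonin replicate 2.

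Thick filament partners and chaperones, 11 of 13 found, had 0 calls, 3 positive and 8 negative fold changes and a median of -0.09. UNC45B and SMYD1, the chaperone and the methyltransferase of myosin assembly, had values of -0.01 ± 0.23 and -0.20 ± 0.27. The titin-binding ligases TRIM54 (-0.70 ± 0.19) and TRIM63 (1.00 ± 0.44), which mark sarcomere proteins for turnover, had the smallest p and opposite signs, with edgeR adjusted p values of 0.440 and 0.473. Fibre type regulators, 25 of 28 tested, had 0 calls, 10 positive and 15 negative fold changes and a median of -0.14. MYOD1, a myogenic factor linked to fast fibres, and PPARGC1A, the coactivator of oxidative fibres, had the smallest p among them at -1.18 ± 0.39 and -0.64 ± 0.25 (edgeR adjusted p = 0.440 and 0.453).

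Other heavy chains of the table included 2 sarcomeric genes that are usually assigned to other muscles, chosen here after their values were seen. MYH6, the atrial isoform, lies 3565 bases downstream of MYH7 (chromosome 7, 75676791 to 75704514) and measured 82.2, 11.0, 109 and 149.7 FPKM in melatonin replicates 1 to 4, against 231, 75.6, 120.1 and 103 FPKM in control replicates 1 to 4. Relative to MYH7 this was 8.47 to 24.2% after melatonin and 12.1 to 18.8% in controls, and r with MYH7 was 0.91 over the 8 libraries and 0.68 without melatonin replicate 2. Of the cardiac markers, NPPA was listed at 0 in 7 of 8 libraries, MYBPC3 reached at most 0.876 FPKM and TNNI3 at most 2.84 FPKM. MYH13, the extraocular isoform at the 3′ end of the chromosome 12 locus, measured 27.5 to 44.5 FPKM after melatonin and 23.8 to 35.9 FPKM in controls. Its r was -0.83 with MYH7 and 0.57 with MYH8 over the 8 libraries, and -0.79 and 0.84 without melatonin replicate 2. The non-sarcomeric MYH14 and MYH11 had log2 fold changes of -0.26 ± 0.17 and 0.42 ± 0.32, and 0 of the 5 tested genes of this list were called.

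Markers of other cell types differed between libraries and moved with some isoforms. The summed level of 8 fibroblast markers was 8557, 671, 2559 and 677 FPKM in melatonin replicates 1 to 4, against 488 to 967 FPKM in controls. In melatonin replicates 1 and 3 most of it was COL1A1 (3457 and 913 FPKM) and COL1A2 (3550 and 908 FPKM). Not every marker stood out: in melatonin replicate 1 and control replicate 1, POSTN measured 10.6 and 10.8 FPKM and LUM 31.3 and 29.5 FPKM. The sum of the 5 tendon markers was also high in melatonin replicates 1 and 3, at 479, 25.1, 232 and 16.1 FPKM in melatonin replicates 1 to 4, against 12.0 to 25.5 FPKM in controls. The 5 adipocyte markers summed to 13.7 to 219 FPKM after melatonin and 21.8 to 126 FPKM in controls. Over the 8 libraries the correlation of these sums with MYH4 was -0.78, -0.68 and -0.79, and with MYH2 0.65, 0.54 and 0.76. No marker of these 3 lists was at 0 in all libraries, and 0 of their 16 tested genes were called. At an unadjusted edgeR p under 0.05 lay 9 of the 16, all higher after melatonin, against 6.67% of all tested genes in that direction. They were 5 of 8 fibroblast, 4 of 4 tendon and 0 of 4 adipocyte genes. The part of these 3 marker groups in the levels of MYH4, MYH8 and MYH2 was not tested. With melatonin replicates 1 and 3 left out, the log2 fold change of MYH4 was 0.27, of MYH8 0.35, of MYH3 0.30, of MYH1 0.65 and of MYH7 -1.11, and the log2 ratio of MYH7 over the 3 fast isoforms differed by -1.83 (exact permutation p = 0.200). The edgeR adjusted p of the 7 genes was at least 0.952 in that setting, and r was -0.92 for MYH2 with MYH4 and 0.95 for MYH4 with MYH8.

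Endothelial markers summed to 35.6 to 52.4 FPKM after melatonin and 36.4 to 52.9 FPKM in controls, and the sum correlated with MYH7 (r = 0.83). The single markers differed in this, with an r with MYH7 of 0.81 for PECAM1, 0.58 for CDH5, 0.48 for KDR and -0.09 for VWF. Smooth muscle (59.8 to 103 and 51.5 to 92.2 FPKM in melatonin and control libraries), macrophage (4.19 to 14.2 and 4.30 to 9.29 FPKM) and Schwann cell markers (3.48 to 18.3 and 5.64 to 11.8 FPKM) gave an r with MYH7 of 0.49, 0.19 and -0.53. The macrophage sum had an r of -0.65 with MYH4, -0.73 with MYH8 and 0.57 with MYH2, and the smooth muscle sum -0.49, -0.37 and 0.46. The part of these cell types in the levels of the isoforms was not tested.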

How the data were processed

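Poly(A) RNA libraries with dUTP marking of the second strand were made, per the labels' protocols, for 4 melatonin and 4 control samples. The authors deposited 1 table with a raw count and an FPKM value per gene and library, per the file headers. The submitters' processing notes list the build Sscrofa11.1 and the tools DESeq2, StringTie and FastQC, with no role given. Neither the aligner, the annotation release nor the use of strand is given in the sources used here. Value columns mapped to no library numbered 0.

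Genes with a mean FPKM of at least 1 were fitted on counts under R 4.3.3 in edgeR 4.0.16, with TMM scaling, the legacy quasi-likelihood F test and no covariate. The alternatives were DESeq2 1.42.0, limma 3.58.1 on log2(FPKM + 1) and log2(FPKM + 0.1), other scalings and filters, and libraries left out. Shares, ratios and correlations were tested by exact permutation with SciPy 1.17.1, pandas 2.3.3 and NumPy 2.4.6 under Python 3.11.15, and figures use Matplotlib 3.10.9. Total counts of 53471667 to 60629098 give small counting error beside the spread between libraries.

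The 7 members and the lists were chosen with earlier results of these data known. Named genes are all members, up to 4 called genes of each list or else the 2 with the smallest p, the most abundant slow and fast partner, and the 3 genes most like each member. Of these like genes, 1 for MYH4 is not reported here. Marker lists of cell types are given as sums. MYL4, UNC45B, SMYD1, MYH6, MYH13 and the cardiac markers were added after their values were seen, as was the test of neighbours in the order of levels. Symbols came from descriptions for 110 genes and from a gene name table for 128, and 8367 genes carry an ID only. No sequences are shown.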

Additional observations from a re-analysis of the deposited data

Results flagged for a closer look

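Among 48 groups of 4 libraries checked for a library far from the others, 3 stood apart, and chance alone marks about 1 in 20 groups. In control replicate 4, MYH1 made up 21.2% of MYH7, MYH2, MYH1 and MYH4 together in FPKM, against 39.8 to 41.6% in the other controls. Of all 7 isoforms it made up 20.9% there, against 39.3 to 41.1% in the other controls. MYH3 and MYH8 together took 1.28% of the 7 isoforms in melatonin replicate 4, against 0.986 to 1.03% in the other melatonin libraries.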

How the results depend on the processing

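Counts per library ran from 845 for MYH7B to 3246246 for MYH4, so counting error is small beside the spread between libraries. For the 7 fold changes the direction held under other scalings, filters and tests, and no alternative brought any of them past the adjusted threshold. With melatonin replicates 1 and 3 left out, MYH4 turned to 0.27 and MYH8 to 0.35 in log2 fold change, the MYH3 share of all 7 isoforms to -0.00684 percentage points and the log2 ratio of MYH2 over MYH1 to -0.15, and 0 pairs of isoforms passed instead of 3. The cause was not tested. That setting for pairs, with 6 libraries, was chosen after seeing the data.

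Each library left out in turn gave log2 fold changes of -0.98 to 0.0389 for MYH4, -0.17 to 0.26 for MYH3 and -0.59 to 0.12 for MYH8. It gave differences of -4.02 to 0.0229 percentage points for the MYH7 share of 4, -3.97 to 0.0340 for its share of 7 and -0.0212 to 0.0549 for the MYH3 share of 7. The log2 ratios ran from -1.54 to -0.44 for MYH4 over MYH1, -0.0689 to 0.45 for MYH2 over MYH1, -1.12 to 0.0411 for MYH7 over the fast isoforms and -0.00584 to 0.64 for MYH3 over MYH8. Within libraries, MYH4 over MYH1 ran from -0.29 to 0.25 and MYH2 over MYH7 from -0.0416 to 0.53. Between 0 and 3 pairs of isoforms passed.

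Over all genes, edgeR called 0 to 15 with a library left out, the 15 without melatonin replicate 4, and DESeq2 called 65. Genes at an unadjusted p under 0.05 numbered 568 to 1882 with a library left out, 1789 with no filter, 434 at a mean FPKM of at least 5, 556 and 559 in limma with a pseudocount of 1 and 0.1, and 474 without melatonin replicates 1 and 3. Whether the replicate numbers pair the libraries could not be decided from these values. The correlation of same-numbered deviations from the group means was 0.18, 0.09, 0.14 and -0.05 for numbers 1 to 4. The highest correlation with a control of another number was 0.08, 0.13, 0.08 and 0.30. With the replicate number as a block edgeR called 0 genes, 1061 lay at an unadjusted p under 0.05, and MYH7B had a log2 fold change of -1.12 (adjusted p = 0.425). The block changed no call, though it lowered the SE of all 7 heavy chains, for MYH7 from 0.56 to 0.38.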
